A study of Homo sapiens with 4 samples.

Results

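The genes described here are 10 regulators of the BCL2 family, chosen by symbol: the anti-apoptotic BCL2L1, MCL1 and BCL2L2, the effectors BAX and BAK1, and the BH3-only genes BAD, BID, BCL2L11, BBC3 and PMAIP1. All 10 were among the 26255 gene symbols measured, and all 10 had a mean of at least 1 FPKM (fragments per kilobase, normalised for depth by the authors), the level taken as expressed, as did 12663 genes in all. RNA came from A549, an established human lung adenocarcinoma line labelled WT in genotype, after 5 days in DMEM with 5% serum. Cells were in 3D or 2D, each in normoxia or hypoxia (4 groups), where 3D means seeding on solidified Matrigel, a gelled basement membrane extract, 2D means the usual dish, and hypoxia means 1% oxygen. Each group was 1 library, so differences between 2 libraries are given as values without replication. The series was made to describe micropapillary-like structures of these cells that form under hypoxia.

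BCL2 family proteins decide whether the outer mitochondrial membrane is opened in the intrinsic pathway of apoptosis. BAX and BAK1 form the pores that release cytochrome c, the anti-apoptotic members bind and restrain them, and the BH3-only proteins, which carry a single BCL2 homology domain, either occupy the anti-apoptotic members or activate the effectors. Much of their control lies in protein turnover, phosphorylation and location, which RNA does not show.

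The libraries differed in depth. Taking the commonest low value as 1 fragment gave about 11700000 and 11400000 fragments for 3D in normoxia and hypoxia, and about 23700000 and 38600000 for 2D. At those depths BCL2L11 rested on 77.7 to 269 fragments, BCL2L2 on 82 to 283 and BAX on 615 to 3080. The epithelial keratins KRT8 and KRT18 stood at 1721 FPKM or more in every library, while EPCAM was at 1.43 to 2.73 FPKM the alveolar markers SFTPA1, SFTPB, SFTPC and NKX2-1 at 0 to 0.1003, and the alveolar protease NAPSA at 0.812 to 2.06. Of 5 blood markers CD68, a lysosomal protein of macrophages, was at 31.6 and 31.2 FPKM in 3D normoxia and hypoxia and at 20.2 and 13.1 in 2D, and the other 4 were at 0 to 0.273, with PTPRC, which defines white blood cells, at 0 to 0.0168. Of 5 fibroblast markers COL1A1 was at 0.856 and 0.614 FPKM in 3D and 2.32 and 13.2 in 2D, LUM at 0 and 0.0838 and at 0.335 and 0.857 in the same order, and the other 3, DCN among them, were at 0 to 0.0971. In bulk RNA, fewer cells with a transcript and less of it per cell cannot be told apart.

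The members spanned a wide range of levels. BAX had the highest mean, 171.4 FPKM, followed by BCL2L1 at 103.3, MCL1 at 56.2 and BAD at 46.9. BID (21.2), BCL2L2 (12.6), BAK1 (10.8), BBC3 (9.43), PMAIP1 (6.59) and BCL2L11 (4.37 FPKM) made up the lower part of that order. BCL2L2, by mean the lowest of the 3 anti-apoptotic members, was nearly flat, at 12.6 FPKM in both 3D libraries and at 12.5 and 12.8 in 2D normoxia and hypoxia. With 84.7 and 82 estimated fragments in 3D normoxia and hypoxia, a small change in BCL2L2 would not be seen. PMAIP1 had the widest range, with its highest library 3.03-fold above its lowest, and BID and BAX followed at 2.34-fold and 2.30-fold. BAX held the top of the order in 3 libraries, and in 3D hypoxia BCL2L1 stood above it.

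**Figure D1:**
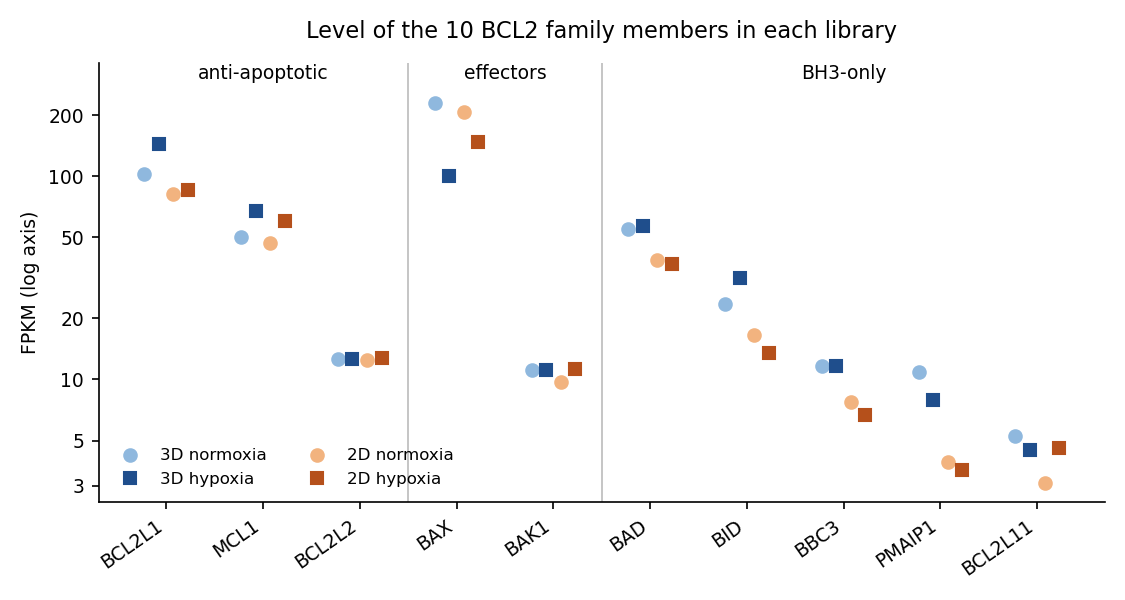
FPKM of each member (log axis) in the 4 libraries, grouped by role; each point is 1 library. BAX is the highest member in every library except 3D hypoxia, where BCL2L1 at 143.8 FPKM lies above BAX at 100.2, and the blue 3D points of PMAIP1, BBC3, BAD and BID lie above the orange 2D points.

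The promoter of BAX, the member with the largest hypoxia ratio, and those of PMAIP1 and BBC3, which rose in 3D, are shown with that of BNIP3, a relative that rose under hypoxia. Each run is the 250 bases before the RefSeq start site (GRCh38.p14, a different build from the authors' hg19), and capitals mark the core recognised by hypoxia-inducible factors, ACGTG or GCGTG on either strand, with overlapping matches merged into 1 site. They lie at chr19:48954625-48954874 (+ strand), chr18:59899746-59899995 (+ strand), chr19:47232668-47232917 (- strand) and chr10:131981924-131982173 (- strand).
BAX: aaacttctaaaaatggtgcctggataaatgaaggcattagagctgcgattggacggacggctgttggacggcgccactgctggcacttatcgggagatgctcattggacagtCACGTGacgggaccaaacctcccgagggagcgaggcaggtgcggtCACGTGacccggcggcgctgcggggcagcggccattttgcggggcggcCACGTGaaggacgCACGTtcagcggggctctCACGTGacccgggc
PMAIP1: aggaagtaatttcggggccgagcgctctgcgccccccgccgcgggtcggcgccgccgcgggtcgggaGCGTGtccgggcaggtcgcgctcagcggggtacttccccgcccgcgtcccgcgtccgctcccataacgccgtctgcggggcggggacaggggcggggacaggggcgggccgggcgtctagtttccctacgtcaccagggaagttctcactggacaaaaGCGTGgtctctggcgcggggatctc
BBC3: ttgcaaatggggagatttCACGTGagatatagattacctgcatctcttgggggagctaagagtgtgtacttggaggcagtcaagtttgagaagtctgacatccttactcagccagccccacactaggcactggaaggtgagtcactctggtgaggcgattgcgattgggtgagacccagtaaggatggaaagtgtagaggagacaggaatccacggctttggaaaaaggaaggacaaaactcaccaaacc
BNIP3: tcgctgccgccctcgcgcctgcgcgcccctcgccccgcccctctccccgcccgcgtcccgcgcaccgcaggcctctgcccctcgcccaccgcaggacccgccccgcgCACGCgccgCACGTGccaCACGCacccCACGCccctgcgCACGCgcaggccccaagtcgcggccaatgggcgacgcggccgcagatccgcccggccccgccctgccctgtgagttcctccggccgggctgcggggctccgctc
The BAX window held 5 such sites, 4 of them the palindrome CACGTG, which contains the core on both strands and is also the E-box bound by MYC and its relatives. The core occurred in 43.2% of all 35116 promoter entries of this length and CACGTG in 6.34%, and 4 or more copies of CACGTG were found in 5 entries (0.0142%). BNIP3 also held 5 sites, 1 of them within CACGTG, PMAIP1 held 2 and BBC3 1. Of all entries, 16.2% had 2 or more matches to the core and 0.629% had 5 or more. Of the 8 members with an entry, 7 had the core in at least 1 entry, and 1, BAK1, had a p53 half-site (either strand, 5.57% of all entries). Some members have several entries, so these counts per gene are not directly comparable with the shares per entry. A match describes the letters and is not evidence of binding.

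The first comparison asked how the members stood in hypoxia against normoxia. BAX, the effector that moves from the cytosol to mitochondria, was at 230.6 FPKM in 3D normoxia and 100.2 in 3D hypoxia, and at 207.1 in 2D normoxia and 147.8 in 2D hypoxia. Both hypoxic libraries lay below both normoxic ones, 2.30-fold lower in 3D and 1.40-fold lower in 2D. On the scale log2(FPKM + 1), used for every log2 value below, these were ratios of -1.19 in 3D and -0.48 in 2D, with counting errors of 0.07 and 0.04 that cover the sampling of fragments only. BAK1, the effector that resides in mitochondria, stood at 11.2 and 11.1 FPKM in 3D and 9.73 and 11.3 in 2D in normoxia and hypoxia. BAX thus went from 20.7 times the level of BAK1 to 9.01 times in 3D, and from 21.3 to 13.1 times in 2D.

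MCL1, a short-lived guardian, was at 49.97 FPKM in 3D normoxia and 67.6 in 3D hypoxia, and at 46.8 and 60.4 in 2D. Its 2 hypoxic libraries lay above its 2 normoxic ones, with log2 ratios of 0.43 and 0.36. BCL2L1, whose main product is BCL-xL, was at 102.1 and 143.8 FPKM in 3D normoxia and hypoxia and at 81.5 and 85.7 in 2D, so that its log2 ratio was 0.49 in 3D and 0.07 in 2D. The groups overlapped for BCL2L1, since 3D normoxia lay above 2D hypoxia. The share of all genes whose hypoxic and normoxic libraries separate was not counted, so the separation for BAX and MCL1 is a description only.

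The BH3-only genes stood higher or lower under hypoxia by gene and culture. BID, which caspase-8 cleaves to link death receptors to mitochondria, was at 23.4 FPKM in 3D normoxia and 31.5 in 3D hypoxia but at 16.5 and 13.5 in 2D, with log2 ratios of 0.41 and -0.28. BCL2L11 (BIM) was at 5.29 and 4.49 FPKM in 3D and 3.10 and 4.58 in 2D, with ratios of -0.20 (counting error 0.18) and 0.44. PMAIP1 (NOXA), a partner chiefly of MCL1, had ratios of -0.42 and -0.10, BBC3 (PUMA) 0.00 and -0.19, and BAD, which growth factor signalling inactivates, 0.06 and -0.07.

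As an average over both cultures, limma (additive in culture and oxygen, Benjamini-Hochberg over all 12663 genes) called 0 of the 10 members under hypoxia, where 4.84% of all genes were called. Unadjusted p was under 0.05 for 2 of them, against 25.6% of all genes. BAX had an effect of -0.84 ± 0.19 (SE; limma adjusted p = 0.0727) and MCL1 one of 0.39 ± 0.12 (adjusted p = 0.114). BAX passed when small RNA genes and genes listed at 0 were left out (limma adjusted p = 0.0269, range over the 7 alternatives 0.0269 to 0.183). The median effect of the 10 members was 0.04 and that of all genes -0.01. By size, BAX was the 1 member at least 2-fold lower in 3D, where 1.11% of genes were, and in 2D no member differed by 2-fold, where 3.6% of genes did.

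**Figure D2:**
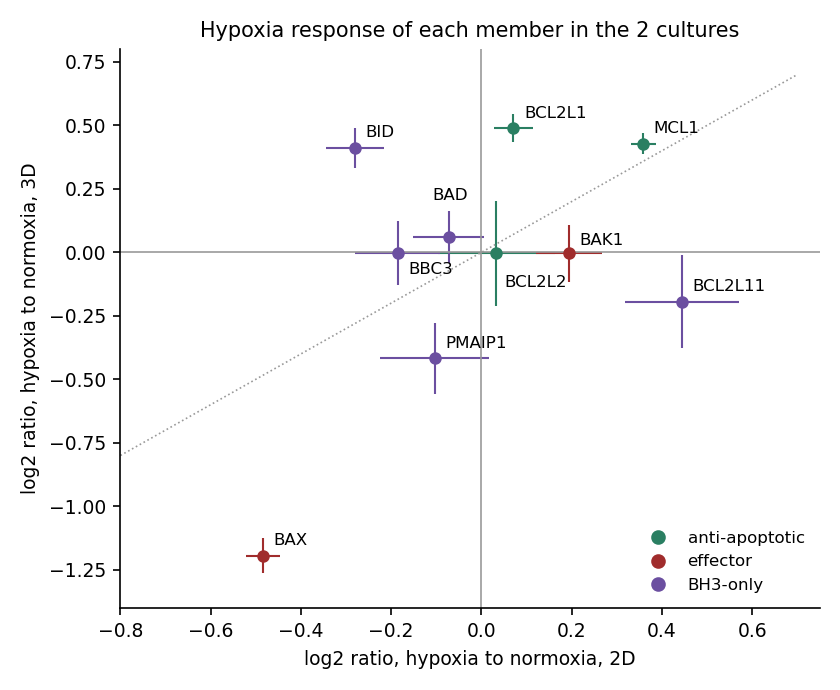
log2 ratio of hypoxia to normoxia for each member in 2D (horizontal) and 3D (vertical); bars are counting errors, 1 library a group, and the dotted line marks equal ratios. BAX lies at -0.48 and -1.19, MCL1 near the line at 0.36 and 0.43, and BID in the upper left at -0.28 and 0.41.

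Compared between the cultures, the hypoxia ratios differed most for BAX, by -0.71 (3D minus 2D, counting error 0.08), then BID (0.69), BCL2L11 (-0.64) and BCL2L1 (0.42). No member reached a 2-fold difference of responses, which 2.73% of genes did, and with 1 library a group the difference was not tested. MCL1 differed by 0.07, a value close to its counting error of 0.05.

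The second comparison set Matrigel against plastic, and there 4 of the 5 BH3-only genes rose in 3D, where 10.4% of all genes did. PMAIP1 was at 10.9 FPKM in 3D normoxia and 7.92 in 3D hypoxia, against 3.94 and 3.60 in 2D. Both 3D libraries lay above both 2D libraries, and the effect was 1.11 ± 0.14 (SE; limma adjusted p = 0.0106). BBC3 stood at 11.7 FPKM in both 3D libraries and at 7.73 and 6.68 in 2D normoxia and hypoxia, again without overlap (0.63 ± 0.12, limma adjusted p = 0.0229). BAD was at 54.7 and 57.1 FPKM in 3D against 38.9 and 36.9 in 2D (0.55 ± 0.12, limma adjusted p = 0.0295). BID, with the values above, also had both 3D libraries higher (0.82 ± 0.18, limma adjusted p = 0.0321). BCL2L11 did not pass (0.30 ± 0.19, limma adjusted p = 0.28). How many of all genes have 3D and 2D libraries without overlap was not counted, so that separation is a description only.

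Among the 3 anti-apoptotic members and the 2 effectors, limma called 0 for culture, with 1 at an unadjusted p under 0.05, as were 40.3% of all genes. That was BCL2L1, at 0.53 ± 0.15 (limma adjusted p = 0.0544), whose adjusted p ran from 0.0298 to 0.138 over the alternatives and which passed in 2 of 7. MCL1 (0.13), BCL2L2 (0.00), BAK1 (0.08) and BAX (-0.20) had effects close to or below their standard errors. The BAX effect averages culture ratios of opposite sign, 0.15 in normoxia and -0.56 in hypoxia. Over the whole family of 10 members, 4 rose and 0 fell, where 10.4% of all genes rose and 11.6% fell, and the median effect of the members was 0.41 against -0.03 for all genes. By size, PMAIP1 was the 1 member at least 2-fold higher in 3D normoxia (log2 ratio 1.27, 1.98% of genes), and BID the 1 in 3D hypoxia (1.17, 3.8% of genes). PMAIP1 came close there, at 0.96.

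**Figure D3:**
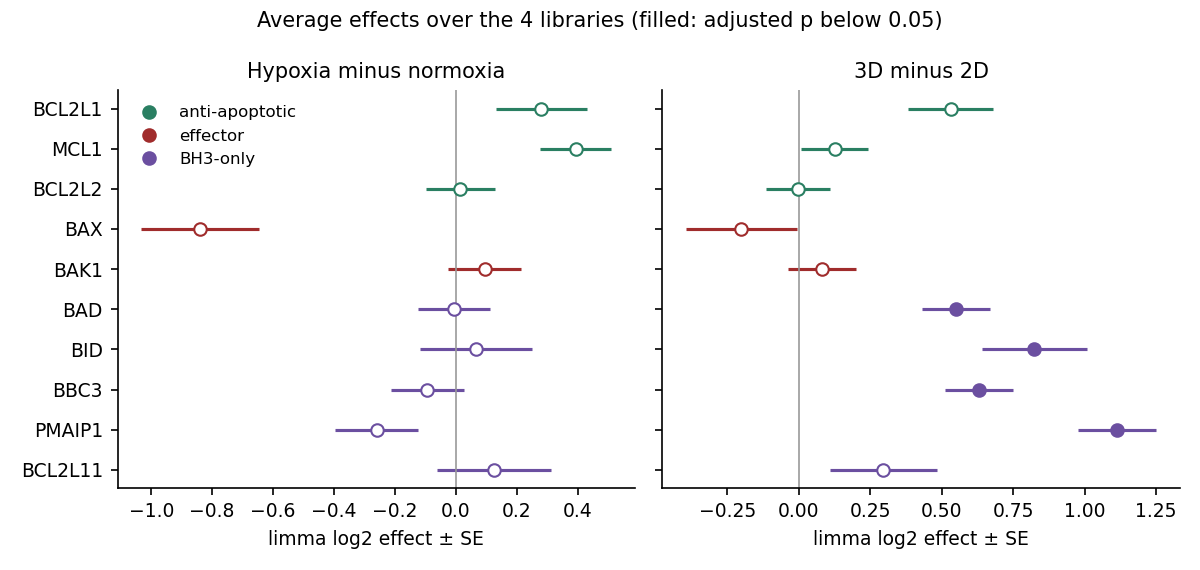
limma log2 effects ± SE of hypoxia (left) and of 3D culture (right) on each member over the 4 libraries; filled points have an adjusted p below 0.05. For hypoxia 0 points are filled, and PMAIP1, BID, BBC3 and BAD are filled for culture, between 0.55 and 1.11.

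Library depth moved with culture, since both 3D libraries were the shallower ones, and its part in the culture effect was not tested. Of the cell type markers, CD68 (0.90, limma adjusted p = 0.0209) and the keratin KRT19 (1.56, limma adjusted p = 0.00885) rose in 3D with the BH3-only genes. COL1A1 was called lower there (-1.99, limma adjusted p = 0.0436). It reached a mean of 1 FPKM only through the 2D libraries, so its call gives no support. The part of these markers was not tested either. In simulated data with known hypoxia effects the same fit recovered the effect sizes but made a larger share of false calls than its threshold of 0.05 allows. Culture calls were not scored there, so the share of false calls among them is not known. The FPKM sums were also higher in 3D at each oxygen level (543547 against 473503 in normoxia, 596102 against 519824 in hypoxia). Once library sums were set to 1000000, the median culture effect of all genes went from -0.03 to -0.21, PMAIP1 (1.01) and BBC3 (0.47) still passed, and BID (0.65, limma adjusted p = 0.0514) and BAD (0.36, limma adjusted p = 0.0695) did not. The calls over all genes went from 1313 up and 1472 down to 767 up and 3132 down for culture, and from 405 up and 208 down to 303 up and 475 down for hypoxia. Without a filter on low values, limma called 0 members and 3 of all genes for culture (PMAIP1 had an adjusted p of 0.0584). Every called gene among the members and the 5 other apoptosis lists lost its call there. The cell type markers were not followed over the alternatives.

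The classes were then set against each other within each library, where the scaling of the library cancels. The anti-apoptotic members summed to 164.7 and 224.0 FPKM in 3D (normoxia, then hypoxia) and to 140.9 and 158.9 in 2D. The effectors summed to 241.8, 111.3, 216.8 and 159.0 FPKM in the same order, and BAX made up 90.0% to 95.5% of that sum. The BH3-only genes summed to 106.0, 112.7, 70.2 and 65.2 FPKM, of which BAD was 50.7% to 56.6%. The anti-apoptotic sum was thus highest in 3D hypoxia, the library in which the effector sum was lowest.

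The ratio of the 7 pro-apoptotic to the 3 anti-apoptotic members was 2.11 in 3D normoxia and 1.00 in 3D hypoxia, and 2.04 in 2D normoxia and 1.41 in 2D hypoxia. It was lower in hypoxia in both cultures, 2.11-fold in 3D and 1.44-fold in 2D, with counting errors of 0.03 to 0.06 on the ratios and no test. The sums leave out BOK, BNIP3 and BNIP3L, relatives described below that were called higher under hypoxia. BNIP3 was at 47.5 and 157 FPKM in 3D and 29.5 and 88.4 in 2D (normoxia, then hypoxia). BNIP3L was at 19.7 and 106.3 in 3D and 12.1 and 56.9 in 2D. A ratio that counts these 3 genes was not computed. The lower ratio in hypoxia thus describes the 10 listed members and may not hold with these genes counted. The effector ratio was 1.47 and 0.497 in 3D normoxia and hypoxia and 1.54 and 1.00 in 2D. The BH3-only ratio was 0.643 and 0.503 in 3D and 0.498 and 0.410 in 2D, higher in 3D than in 2D at each oxygen level. The ratio of BAX to BCL2L1 alone was 2.26 and 0.697 in 3D and 2.54 and 1.72 in 2D. PMAIP1 to MCL1, a pair whose proteins bind each other, stood at 0.218 and 0.117 in 3D and 0.0841 and 0.0596 in 2D. The sums are led by BAX, and without BAX, BAD and BCL2L1, the highest member of each class, the ratios were 0.997 and 0.832 in 3D and 0.691 and 0.541 in 2D.

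**Figure D4:**
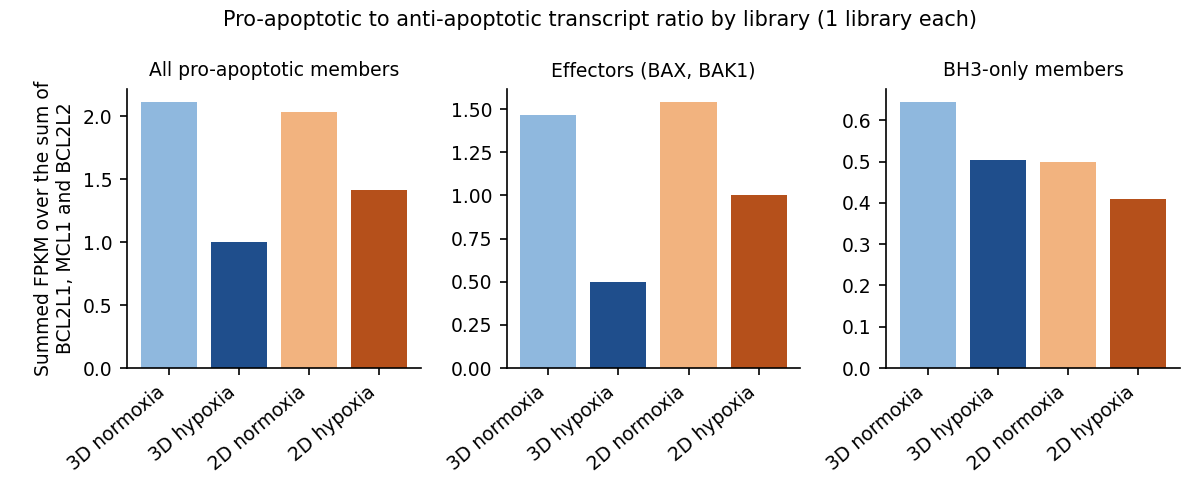
Summed FPKM of all pro-apoptotic members, the effectors and the BH3-only genes over the anti-apoptotic sum, 1 bar per library, with a separate vertical axis from 0 in each panel. The hypoxia bar is lower than the normoxia bar of the same culture in every panel, from 1.47 to 0.497 for the effectors in 3D.

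Some members share sequence with neighbours or copies. BCL2L2 lies within the readthrough gene BCL2L2-PABPN1, which was listed at 53.8, 40.01, 56.9 and 56.9 FPKM, so the split of fragments between them is uncertain. With it added to the anti-apoptotic sum, the pro-apoptotic ratios were 1.59 and 0.848 in 3D and 1.45 and 1.04 in 2D, an alternative chosen after the data were seen. BAK1 has 2 annotated processed pseudogenes. Genes on the other strand overlap BAD (GPR137), BAK1 (GGNBP1), BCL2L1 (ABALON) and BCL2L11 (MIR4435-2HG), and MCL1 overlaps ADAMTSL4-AS1. No source used here states whether fragments were counted by strand.

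The genes with profiles most like PMAIP1, the member of widest range, were SOX9, PLSCR4, HHEX, FTL and GLRX, at Euclidean distances of 0.08 to 0.19 between centred log2 values over the 4 libraries, among 9001 genes that averaged 5 FPKM or more. SOX9, a transcription factor, was at 32.3 and 24.4 FPKM in 3D normoxia and hypoxia and 12.2 and 11.3 in 2D. For BAX, the member of highest mean, they were HOXB-AS3, PCNA, BDNF, HOXB6 and AEN, at distances of 0.02 to 0.24. PCNA, the replication clamp, stood at 234.1 and 120.9 FPKM in 3D and 225.8 and 158.9 in 2D, and AEN, an apoptosis-enhancing nuclease, at 25.8 and 12.8 in 3D and 25.8 and 20.6 in 2D. With 4 points a profile, such likeness is a description only.

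Other genes of the pathway were read beside the members, against medians over all genes of -0.01 for hypoxia and -0.03 for culture. Of 13 further family genes 9 were expressed, and limma had 3 rise and 0 fall under hypoxia (median 0.43) and 2 rise and 1 fall in 3D (median 0.08), where 3.2% of all genes rose and 1.64% fell under hypoxia and 10.4% and 11.6% in 3D. BNIP3L and BNIP3, known for mitophagy as well as cell death, rose by 2.26 ± 0.12 and 1.63 ± 0.12 (limma adjusted p = 0.00452 and 0.00661). BOK, a BAX-like effector, was at 6.09 and 14.6 FPKM in 3D normoxia and hypoxia and at 7.22 and 11.9 in 2D, and rose by 0.89 ± 0.15 (limma adjusted p = 0.0404), a call that held in 4 of 7 alternatives. BNIP3 and BNIP3L rose in 3D as well (0.75 and 0.78), and the gene called lower there was BCL2A1, an anti-apoptotic relative (-0.87, limma adjusted p = 0.0321). It stood at 0.227 and 1.07 FPKM in 3D and 1.00 and 3.24 in 2D, and it reached a mean of 1 FPKM only through 2D hypoxia, the library where it was high, so the call gives no support. BCL2 itself was at 0.918 to 1.58 FPKM, far below BCL2L1.

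**Figure D5:**
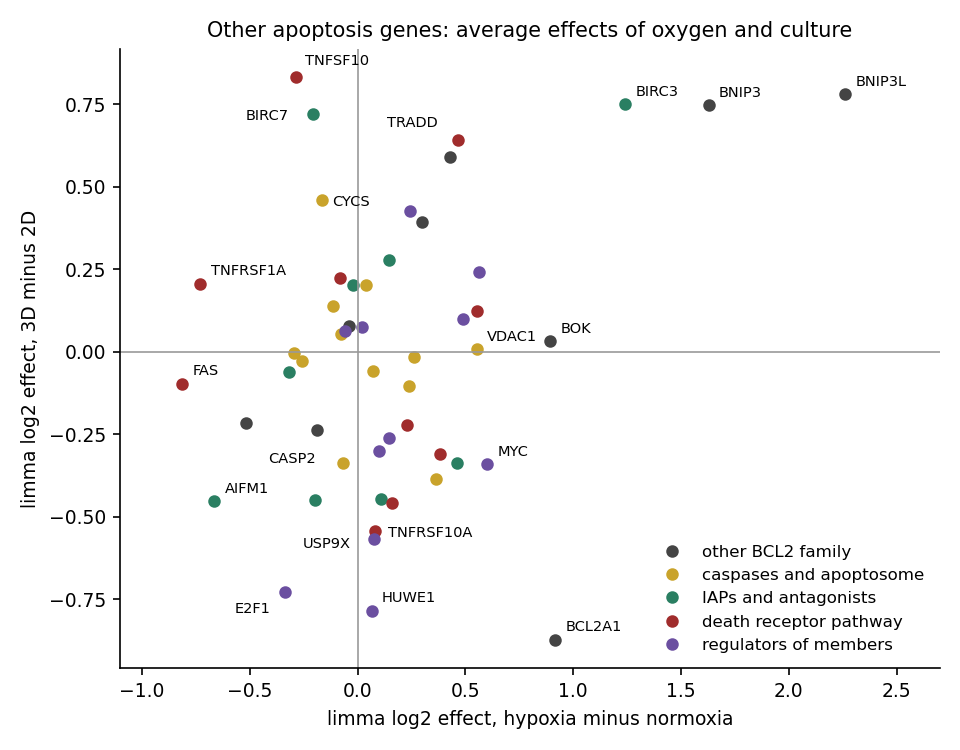
limma log2 effects of hypoxia (horizontal) and 3D culture (vertical) for expressed genes of the 5 other apoptosis lists, coloured by list, with the named genes labelled. BNIP3L, BNIP3 and BIRC3 lie in the upper right, raised in both, and BCL2A1 at 0.92 and -0.87.

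Downstream of the mitochondria, 0 of 12 genes for caspases, the apoptosome and the VDAC channels were called by limma for either effect, with 2 under hypoxia and 3 for culture at an unadjusted p under 0.05 (25.6% and 40.3% of all genes) and medians of -0.01 for both. CYCS, cytochrome c, had effects of -0.17 and 0.46, VDAC1, an outer membrane channel, 0.55 and 0.01, and CASP2 -0.07 and -0.34 for hypoxia and culture. A further list of 9 genes held inhibitors of apoptosis, their antagonists and AIFM1 (medians -0.02 and -0.06). Of these, 1 rose and 1 fell under hypoxia, where 3.2% of all genes rose and 1.64% fell. In 3D 2 rose and 1 fell, where 10.4% of all genes rose and 11.6% fell. BIRC3, a ubiquitin ligase of the TNF pathway, rose in both (1.24 and 0.75) and AIFM1, a mitochondrial flavoprotein, fell in both (-0.66 and -0.45, limma adjusted p = 0.0443 and 0.0482, each held in 4 of 7 alternatives). BIRC7, which like BIRC3 carries the BIR domain of the inhibitors, rose in 3D (0.72).

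Of 11 death receptor genes 10 were expressed, and by limma 0 were called under hypoxia, with 5 at an unadjusted p under 0.05, where 25.6% of all genes were (median 0.12). FAS, a death receptor, was at 6.13 and 2.26 FPKM in 3D normoxia and hypoxia and 5.12 and 3.34 in 2D (-0.81, limma adjusted p = 0.0713). TNFRSF1A, the main TNF receptor, had an effect of -0.73 (limma adjusted p = 0.0735). In 3D 2 rose and 1 fell (median 0.01), where 10.4% of all genes rose and 11.6% fell. The ligand TNFSF10, known as TRAIL (0.83), and the adaptor TRADD (0.64) rose, and the TRAIL receptor TNFRSF10A fell (-0.54). TNFSF10, at 2.55 and 2.11 FPKM in 3D and 1.13 and 0.638 in 2D, reached a mean of 1 FPKM only through the 3D libraries, so its call gives no support. TRADD lost its call after rescaling to a sum of 1000000 (0.46, limma adjusted p = 0.0614).

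Of 12 regulators of the members' transcription or turnover 11 were expressed, and limma called 0 of them under hypoxia, with 4 at an unadjusted p under 0.05, again against 25.6% (median 0.10). MYC, which can bind E-boxes, had an effect of 0.60 (limma adjusted p = 0.0563). In 3D, where the median was -0.26, 3 fell and 0 rose, where 11.6% of all genes fell and 10.4% rose. The 3 were HUWE1, a ubiquitin ligase for MCL1 (-0.78), USP9X, which removes ubiquitin from MCL1 (-0.57), and E2F1, a cell cycle activator (-0.73).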

How the data were processed

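The files hold the authors' FPKM values, 1 a gene symbol in each library. The submitters' processing notes name Cuffdiff 2.2.1, SAMtools 0.1.18, Bowtie2 2.2.8, TopHat2 2.1.1 and the build hg19. Annotation, scaling between libraries and strand setting: not given in the sources used here. Per the labels' protocols, total RNA went into a TruSeq Stranded mRNA kit.

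Values were taken as log2(FPKM + 1), which understates the differences of low genes, over genes that averaged 1 FPKM or more. Average effects were tested with limma 3.58.1 (R 4.3.3), with culture and oxygen as additive terms and a trend, on 1 residual degree of freedom (4.67 prior). p-values were adjusted over all genes by Benjamini-Hochberg with a threshold of 0.05. Tested on simulated data with known hypoxia effects and the gene variances estimated here, the fit recovered effect sizes, but false calls made up a larger share of its calls than the threshold in each simulation. With 1 library a group, that residual is the difference of a gene's hypoxia responses between 3D and 2D, shrunk towards that of all genes. A gene whose responses differ, such as BAX, thus has a larger standard error. The labels do not say whether cultures were separate, and no p-value here measures the spread between replicate cultures. Pairs of libraries were described by size (2-fold). Depth came from 2134 genes with a single annotated transcript over 1000 bases, and counting errors from it and the median coding transcript length in GENCODE 29. Both are approximate. Promoter sequences are from RefSeq (GRCh38.p14). Other steps ran in Python 3.11.15, numpy 2.4.6, pandas 2.3.3 and matplotlib 3.10.9.

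The members, gene lists and tests were chosen with earlier results of these data known. Named genes are all members, of each other list the called genes and the 3 with the largest ratio between a pair, and the 5 closest profiles to the members of widest range and highest mean, without small RNA genes and uncharacterised loci. Alternatives were a pseudocount of 0.1, no filter or a mean of 5 FPKM or more, 2 rescalings, no trend, leaving out genes listed at 0 and small RNA genes, and other ways to form the class ratio.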

Additional observations from a re-analysis of the deposited data

Results flagged for a closer look

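BID had hypoxia ratios of opposite sign in the 2 cultures, each over 2 counting errors from 0: 0.41 in 3D and -0.28 in 2D on the log2 scale, a difference of 0.69. BAX had culture ratios of opposite sign at the 2 oxygen levels, 0.15 in normoxia and -0.56 in hypoxia, a difference of -0.71 (hypoxia minus normoxia). With 1 library a group, neither difference was tested.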

How the results depend on the processing

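The count of members called under hypoxia stayed at 0 of 10 except when genes listed at 0 and small RNA genes were left out, where it was 1 (BAX). For culture it was 4, 0 without a filter on low values, 2 after rescaling to a sum of 1000000, and 4 or 5 under the other alternatives. Over all genes the hypoxia calls went from 613 to 5 without a filter, 248 after rescaling to equal medians, 366 without trend and 1286 with genes listed at 0 and small RNA genes left out, and the culture calls from 2785 to 3 without a filter. Genes at least 2-fold apart went, with a pseudocount of 0.1, from 456 to 698 for hypoxia in 2D, from 566 to 924 for 3D against 2D in normoxia and from 346 to 607 for the difference of responses. They went to 899 for 3D against 2D in normoxia after rescaling to a sum of 1000000, and to 227 for the difference of responses among genes that averaged 5 FPKM or more. The cause of these shifts was not tested. Rescaling to a sum of 1000000 changed the sign of 5 uncalled effects, those of hypoxia on BAK1 (-0.0285), BCL2L2 (-0.11) and BID (-0.0653) and of culture on BAK1 (-0.10) and MCL1 (-0.0699), and equal medians that of culture on BCL2L2 (0.0376). From medians of log2 values in place of sums, the pro-apoptotic to anti-apoptotic ratio was 0.249 and 0.185 in 3D and 0.224 and 0.200 in 2D, normoxia before hypoxia. Without the highest member of each class it was 0.997, 0.832, 0.691 and 0.541, and with the readthrough added 1.59, 0.848, 1.45 and 1.04. It was lower in hypoxia than in normoxia within each culture under each of these, none of which counted BOK, BNIP3 or BNIP3L. From medians, the anti-apoptotic value was that of MCL1, and without the highest members the anti-apoptotic sum was MCL1 and BCL2L2. MCL1 stood higher in hypoxia in both cultures, so the ratios from medians and without the highest members are no check on the lower BAX. No paired analysis was possible because each group holds 1 library, so the groups share fewer than 2 replicate numbers. The fit used, with culture as a term, already compares oxygen levels within each culture. Leaving out a library leaves no residual degrees of freedom.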
